A study of Mus musculus with 15 samples.

Results

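The Sonic hedgehog pathway was described here through 9 genes: the ligand *Shh*, the receptor *Ptch1*, the co-receptors *Cdon* and *Boc*, the decoy receptor *Hhip*, the transducer *Smo* and the transcription factors *Gli1*, *Gli2* and *Gli3*. Its members were chosen by gene name, and 8 of the 9 had a row among 26835 genes of the *Lhx6* table and 9 of 9 among 25714 genes of the *Mtg8* table. RNA came from YFP-positive cells sorted from the cortex of single mouse embryos at embryonic day 14.5, on a mixed C57BL6/CBA background. Every embryo carried Nkx2-1-Cre and the R26R-YFP reporter, so that YFP marked cells derived from the medial ganglionic eminence (MGE), the part of the ventral forebrain where *Nkx2-1* is expressed and from which many cortical interneurons migrate. Controls of the *Lhx6* comparison were Lhx6+/+ (4 libraries) and their mutants were Lhx6-/- (5 libraries), carrying a germline loss-of-function allele made from a floxed line. Controls of the *Mtg8* comparison were Mtg8+/+ (3 libraries) and the mutants were Mtg8-/- (3 libraries) by a LacZ knock-in, and MTG8 is the protein of the gene *Runx1t1*. Both genes were inactivated in the whole embryo and not in the sorted cells alone.

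Hedgehog signalling starts when the secreted ligand SHH binds PTCH1, which otherwise holds the membrane protein SMO inactive at the primary cilium. Active SMO turns the GLI proteins from repressors into activators, and *Ptch1*, *Gli1* and *Hhip* are themselves transcribed in response, so their transcripts are commonly read as a measure of pathway activity. In the ventral forebrain SHH maintains *Nkx2-1* in MGE progenitors, GLI3 acts there mainly as a repressor, and LHX6 together with LHX8 is known to induce *Shh* in young neurons of the MGE mantle.

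Reads summed over the listed genes, from which the authors had removed sex-linked genes, ranged from 12218422 to 22053032 per library. *Lhx6* itself fell from a normalized count of 7247 ± 1093 (SD, n = 4) to 331 ± 99.7 (n = 5) in the mutants, whereas *Runx1t1* measured 8891 ± 1219 in *Mtg8* controls and 12845 ± 944 (n = 3 each) in the libraries labelled *Mtg8* mutant, with every labelled mutant above every control (log2 difference 0.54, adjusted p = 0.859 by limma). Reads were counted over the whole gene, so they do not separate the exons that the knock-in interrupts from the others, and these libraries are named by their label throughout. *Runx1t1* rose in the *Lhx6* mutants, from 7449 ± 1072 to 17973 ± 5387 (adjusted p = 0.0040 by limma). *Sst*, the somatostatin gene and a marker of MGE-derived interneurons, is added here after its values were seen: it was 16695 ± 2080 in *Mtg8* controls and 6615 ± 1259 in the labelled mutants, without overlap (log2 difference -1.34, adjusted p = 0.0713 by limma). In the *Lhx6* comparison *Sst* was 11499 ± 859 in controls and 1388 ± 192 in mutants, also without overlap (log2 difference -3.06, adjusted p = 9.0e-08 by limma). Of 14 interneuron markers 13 had a row in each table, and their summed normalized count lay between 31563 and 60354 in the *Lhx6* comparison and between 49072 and 82568 in the *Mtg8* comparison, so the labelled cell type was present. RNA of the pyramidal lineage, which the reporter should not mark, was present as well, with 6 of 6 markers listed and sums of 4792 to 18803. Library names either hold a date or do not, and the labels do not say what this reflects: the 4 *Lhx6* controls and mutant 6 are undated and *Lhx6* mutants 1, 2, 3 and 5 are dated, so genotype and name style can hardly be told apart there. Of the *Mtg8* libraries, controls 1 and 2 and labelled mutant 2 are dated and the others are not.

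Promoter sequences are shown for *Ptch1* and *Gli3*, the members with the smallest p in the *Lhx6* comparison. RefSeq promoter windows (GRCm38.p6) were matched for 6 of the 9 members, *Ptch1*, *Smo*, *Gli2*, *Gli3*, *Hhip* and *Cdon*, and the 250 bases before the annotated start were read 5′ to 3′ on the strand of the gene. The *Ptch1* window is chr13:63565736-63565985 on the minus strand and the *Gli3* window is chr13:15463473-15463722 on the plus strand, and both lie inside the gene bounds of the deposited table because other transcripts of these genes start farther upstream. Capitals mark the GC box (GGGCGG on either strand), a motif bound by SP1-type factors.
Ptch1: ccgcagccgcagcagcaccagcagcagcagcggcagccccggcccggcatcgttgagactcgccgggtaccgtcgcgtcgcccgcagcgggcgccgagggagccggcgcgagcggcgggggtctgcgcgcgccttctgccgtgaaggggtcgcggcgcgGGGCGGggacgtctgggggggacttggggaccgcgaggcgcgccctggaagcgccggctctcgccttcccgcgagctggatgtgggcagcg
Gli3: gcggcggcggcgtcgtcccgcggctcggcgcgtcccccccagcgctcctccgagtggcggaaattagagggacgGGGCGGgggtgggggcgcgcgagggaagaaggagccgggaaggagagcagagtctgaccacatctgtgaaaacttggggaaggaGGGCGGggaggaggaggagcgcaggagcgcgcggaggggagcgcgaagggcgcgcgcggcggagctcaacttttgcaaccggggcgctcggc
The GC box occurred in 4 of the 6 windows, against 32.7% of the 32851 promoter windows of this length, with 1 copy in *Ptch1*, 91 bases before the start, and 2 copies in *Gli3*. The consensus of GLI factors (GACCACCCA, both strands) occurred in 0 of the 6 windows and in 0.225% of all windows, and the homeodomain core (TAATTA, the same on both strands) in 0 of 6 and in 4.84% of all. These counts say only that the letters are not in these windows. The windows of *Ptch1* and *Gli3* were 78.4% and 72.8% G or C, that of *Cdon* 42.8%.

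Levels of the members differed in control libraries. Per kilobase of exon, the normalized count of *Gli3* was the highest in *Lhx6* controls at 47.5 ± 4.19 (SD, n = 4), followed by *Smo* at 32.4 ± 3.40, *Boc* at 26.5 ± 9.62 and *Cdon* at 26.3 ± 4.19. *Ptch1* at 14.6 ± 3.36 and *Gli2* at 12.2 ± 3.75 were lower, and *Shh* at 0.714 ± 0.408 and *Hhip* at 0.172 (0 to 0.586) were near the limit of detection. The ranges of *Gli3* and *Smo* did not overlap, nor did those of *Cdon* and *Ptch1* or of *Gli2* and *Shh*, whereas *Smo*, *Boc* and *Cdon* overlapped with each other, as did *Ptch1* with *Gli2*.

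For comparison, the median gene tested in that table stood at 64.6 per kilobase, so each of the 8 members with a row there lay below the middle of the genes tested. In *Mtg8* controls the order began with *Boc* at 28.6 ± 3.87 (n = 3), *Gli3* at 25.5 ± 5.04 and *Smo* at 23.9 ± 4.14. *Ptch1* followed at 19.6 ± 6.21, *Cdon* at 15.9 ± 2.82 and *Gli2* at 10.6 ± 0.172. Without division by exon length *Ptch1* came first there and *Boc* was at rank 4. Neighbours in the order per kilobase overlapped down to *Cdon*, and *Gli2* lay below every *Cdon* value. The tables were normalized separately, so their levels are set side by side and were not tested against each other.

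**Figure D1:**
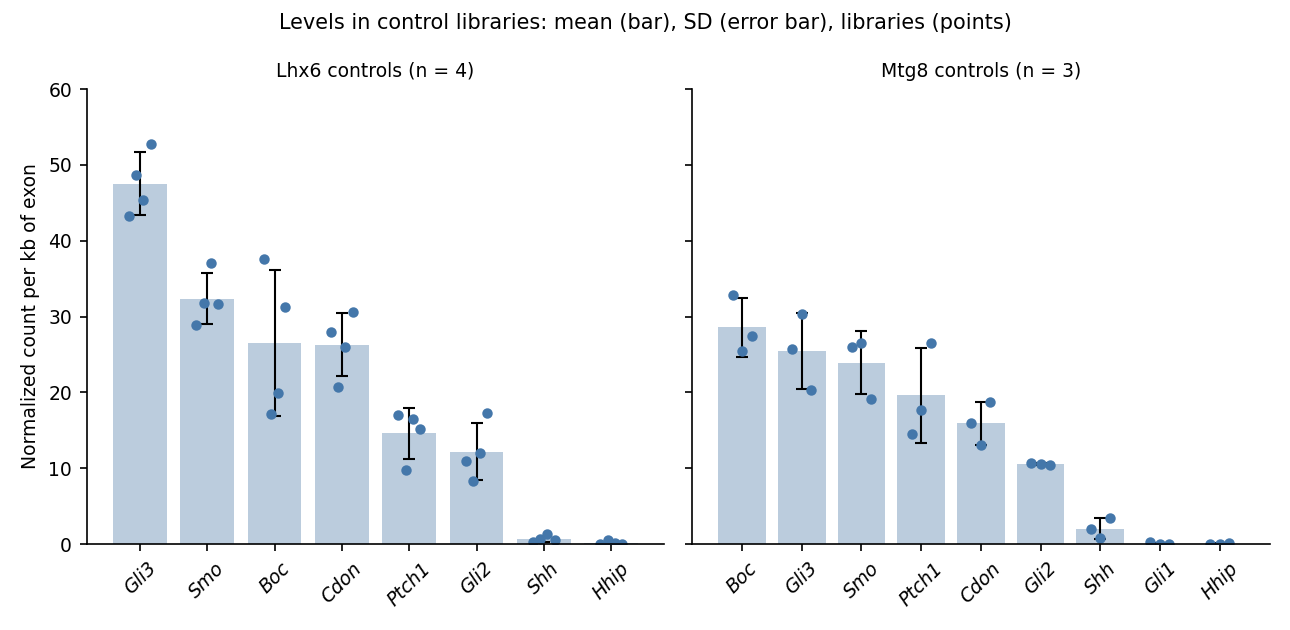
Normalized count per kilobase of exon (linear axis) in the control libraries of each comparison, with bars for the mean, error bars for the SD and points for single libraries. *Gli3* leads the *Lhx6* controls at 47.5 and *Boc* the *Mtg8* controls at 28.6, while *Shh* and *Hhip* sit close to 0 in both, as does *Gli1* in the table that holds it.

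*Shh*, the ligand, was almost absent from the sorted cells. It had 1, 2, 4 and 2 reads in *Lhx6* controls 1 to 4, and 0, 2, 2, 0 and 7 reads in mutants 1, 2, 3, 5 and 6. The controls thus held 9 reads in all and the mutants 11, the groups overlapped, and the highest value was that of mutant 6.

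The *Mtg8* controls held 5, 2 and 10 reads of *Shh* and the labelled mutants 0, 6 and 9, sums of 17 and 15. Its mean normalized count was below the minimum of 10 for testing in both tables, and no fold change is given. A library with 0 reads still allows up to 3 reads (an upper limit for counting error only), and *Shh* was not tested in either comparison. Exons of genes on the other strand (*9530036O11Rik* and *Gm26894*) overlap those of *Shh*, and whether reads were counted by strand is not given in the sources used here, so even these few reads are of uncertain origin.

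*Hhip* and *Gli1*, 2 genes transcribed in response to the pathway, were as scarce. *Hhip* encodes a membrane protein that binds and sequesters the ligand, and it had 0, 6, 1 and 0 reads in the 4 *Lhx6* controls and 0, 8, 0, 1 and 5 in the 5 mutants. Among the *Mtg8* libraries it had 1 read in all 3 controls together and 3 in the labelled mutants, all of them in labelled mutant 4. The libraries at 0 were 2 of 4 controls and 2 of 5 mutants in the *Lhx6* comparison, and 2 of 3 in each group of the *Mtg8* comparison.

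*Gli1*, the activator that serves as the standard readout of the pathway, had no row in the *Lhx6* table and was not analysed there. In the *Mtg8* table it had 1 read in control 1, 1 read in labelled mutant 4 and 0 in the other 4 libraries. Its exons overlap *Arhgap9* and *Gm47200* on the other strand, and those of *Hhip* overlap *Gm27820*, with the same uncertainty as for *Shh*.

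**Figure D2:**
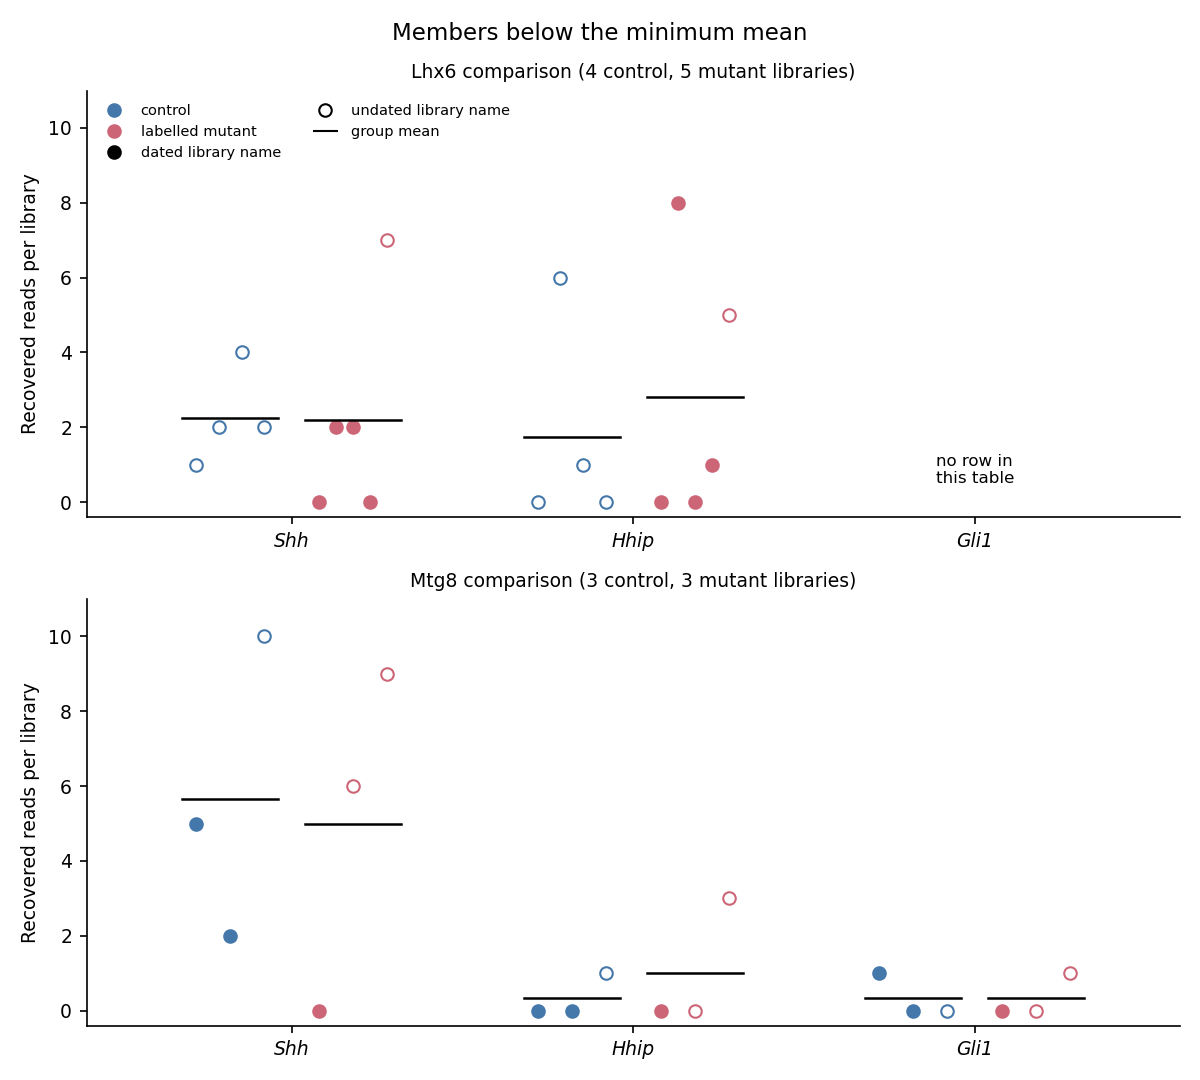
Recovered reads per library (linear axis) of *Shh*, *Hhip* and *Gli1*, with filled points for dated and open points for undated library names and lines at the group means. No library exceeds 10 reads of any of these genes, and control and mutant values overlap wherever a gene has a row.

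The other 6 members were tested in both comparisons. By limma on log2(normalized count + 1), with p adjusted over all genes tested, 0 of the 6 passed an adjusted p of 0.05 in the *Lhx6* comparison, where 1.71% of 16727 genes did. At an unadjusted p under 0.05 there were 2, *Ptch1* and *Gli3*, against 12.7% of all genes. DESeq2 on recovered reads called 1 of them (*Ptch1*), against 4.53% of all genes, and edgeR called 0, against 1.67%. The fitted difference was above 0 for 4 members and below 0 for 2, with a median of 0.35 against -0.037 over all genes tested.

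In the *Mtg8* comparison 0 of 6 passed, where limma called 0% of 16132 genes. *Boc* alone had an unadjusted p under 0.05, against 5.49% of all genes, and DESeq2 and edgeR each called 0 members, against 0.191% and 0.0062% of all genes. There the difference was above 0 for 5 members and below 0 for 1, with a median of 0.39 against -0.013 over all genes tested. The estimates of both comparisons are drawn in the plot of fitted differences. Effects of the 2 genotypes were not tested against each other, since the tables were normalized separately.

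**Figure D3:**
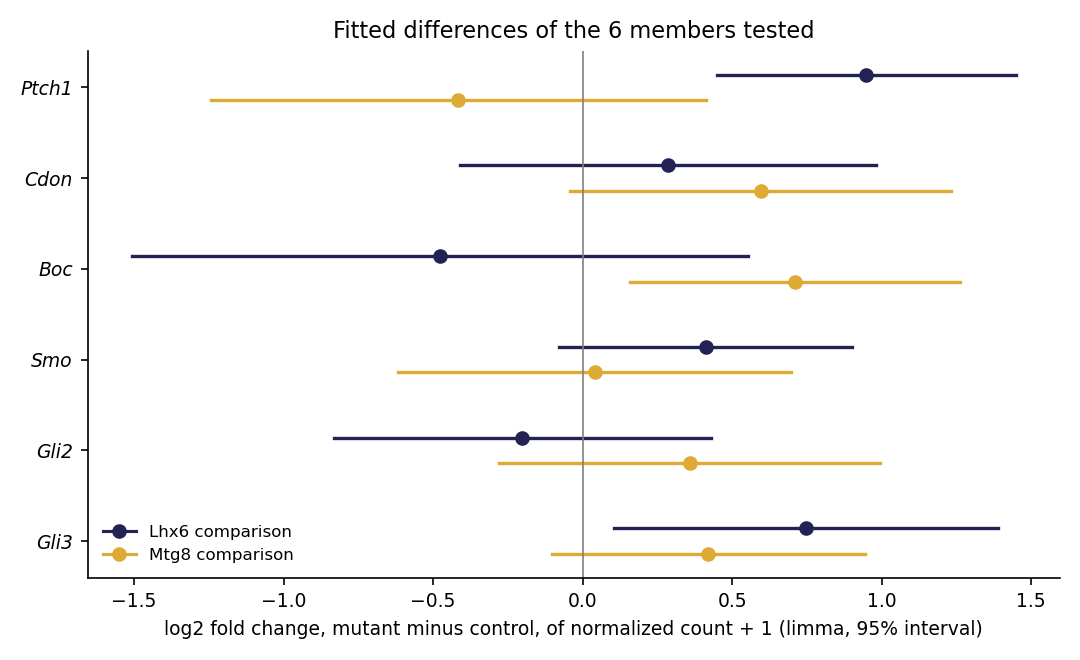
Fitted log2 fold changes (mutant minus control, of normalized count + 1) of the 6 members tested, with 95% intervals from limma, in the *Lhx6* and the *Mtg8* comparison. In the *Lhx6* comparison the intervals of *Ptch1* and *Gli3* lie above 0, and in the *Mtg8* comparison that of *Boc* does.

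*Ptch1* showed the largest difference of the members in the *Lhx6* comparison as fitted here. That order did not hold with name style as a covariate, where *Ptch1* differed by 0.64, *Gli3* by 0.66 and *Cdon* and *Boc* by 0.92 each. All controls are undated, so those estimates are the difference of undated mutant 6 alone from the controls. Nor did the order hold for the same mutant within the library code it shares with controls 1 and 2, where *Cdon* differed by 1.03. Without mutant 3 it did not hold either, and *Gli3* and *Ptch1* differed by 0.997 and 0.992. *Ptch1* (ENSMUSG00000021466.12, chr13:63508328-63573598, minus strand) encodes the receptor that restrains SMO in the absence of ligand. Its normalized count was 242, 138, 235 and 215 in controls 1 to 4, and 548, 456, 347, 338 and 316 in mutants 1, 2, 3, 5 and 6. Every mutant lay above every control, a separation that 3.19% of all genes tested showed in this direction and 6.22% in either, and *Ptch1* was the 1 member of 6 with it.

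The means were 207.5 ± 47.6 (SD, n = 4) and 401 ± 98.5 (n = 5). The log2 difference was 0.95 (SE 0.23, 95% interval 0.45 to 1.45, a 1.93-fold difference), with an adjusted p of 0.0647 by limma. It missed the threshold, while DESeq2 gave an adjusted p of 0.0038, and the adjusted p ranged from 0.0038 to 0.999983 over 19 alternative fits. An exact permutation test of this single value over the libraries gave p = 0.00794, the smallest it can give, not adjusted for the 6 members so tested. The same exact permutation test gave 0.0476 for *Smo*, 0.0952 for *Gli3*, 0.437 for *Gli2* and *Boc* and 0.492 for *Cdon*. Without mutant 6 the adjusted p by limma was 0.0428. Against the 4 controls with undated names, undated mutant 6 alone differed by 0.64.

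*Ptch1* had another pattern in the *Mtg8* comparison. Its normalized count was 207, 251 and 377 in controls 1, 2 and 4 and 271, 104 and 290.5 in labelled mutants 2, 3 and 4. Labelled mutant 3 was the lowest of the 6 libraries, at less than any control, and the groups overlapped. This gave a log2 difference of -0.42 (SE 0.38, 95% interval -1.24 to 0.41, adjusted p = 0.896 by limma), and without labelled mutant 3 it turned to 0.058. Within dated names the difference was 0.25, and within undated names -1.11.

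*Cdon* and *Boc* encode related membrane proteins of the immunoglobulin superfamily that bind SHH and assist PTCH1 as co-receptors. For *Cdon* (chr9:35421128-35507652, plus strand) the *Lhx6* controls measured 215, 159.5, 201 and 236 and the mutants 309, 289.7, 106, 244 and 380.1. Of the 5 mutants 4 lay above every control and mutant 3 below every control. The log2 difference was 0.29 (SE 0.32, 95% interval -0.41 to 0.98, adjusted p = 0.719 by limma), and mutant 6 alone stood 0.92 above the undated controls. Over libraries left out it ranged from 0.13 (without mutant 6) to 0.59 (without mutant 3).

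*Cdon* measured 123, 101 and 145 in *Mtg8* controls and 137, 245 and 187 in labelled mutants. The means of 123 ± 21.7 and 189.7 ± 54.2 (n = 3 each) differed by 0.60 on the log2 scale (SE 0.29, 95% interval -0.041 to 1.23, adjusted p = 0.859 by limma). The groups overlapped through labelled mutant 2, and the difference was 0.29 within dated and 0.56 within undated names, and 0.39 without labelled mutant 3.

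*Boc* had the largest difference of the members in the *Mtg8* comparison as fitted here, and in the *Lhx6* comparison its sign changed with the libraries compared. In the former, *Cdon* exceeded it without control 4 (0.72 against 0.69) and without labelled mutant 2 (0.81 against 0.72), and *Ptch1*, in the other direction, without labelled mutant 4 (-0.68 against 0.62) and within undated names (-1.11 against 0.77). *Boc* (chr16:44485049-44558897, minus strand) measured 146, 113 and 122 in *Mtg8* controls and 204, 187 and 234 in labelled mutants. Every labelled mutant lay above every control, and the same separation held for *Gli2* and *Gli3*, so that 3 of 6 members showed it, against 4.68% of all genes in this direction and 10.2% in either direction.

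The means of *Boc* were 127 ± 17.2 and 208 ± 23.5 (n = 3 each), a log2 difference of 0.71 (SE 0.25, 95% interval 0.16 to 1.26, a 1.64-fold difference) that did not pass, with an adjusted p of 0.859 by limma. An exact permutation test with 3 libraries against 3 cannot go below p = 0.1. The difference was 0.66 within dated names and 0.77 within undated names, and it stayed between 0.62 and 0.89 over 16 alternative fits and these within-name values.

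In the *Lhx6* comparison *Boc* measured 167, 76.2, 88.4 and 139 in controls and 38.4, 121, 41.0, 80.4 and 213 in mutants. Mutants 1 and 3 were below every control and mutant 6 above every control. The log2 difference was -0.48 (SE 0.48, 95% interval -1.51 to 0.55, adjusted p = 0.683 by limma), and mutant 6, the 1 undated mutant, stood 0.92 above the undated controls. Over libraries left out the difference ranged from -0.83 (without mutant 6) to -0.22 (without mutant 1).

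*Smo* (chr6:29735503-29761365, plus strand) encodes the transducer that PTCH1 inhibits. In *Lhx6* controls it measured 162, 179, 208 and 178, and in mutants 391, 221, 229, 212 and 194. Mutant 1 stood far above the others, 4 of the 5 mutants were above every control and mutant 6 was within their range. The log2 difference was 0.41 (SE 0.23, 95% interval -0.078 to 0.90, adjusted p = 0.475 by limma), and mutant 6 differed from the undated controls by 0.10.

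Without mutant 1 the difference of *Smo* was 0.24. *Smo* measured 146, 149 and 108 in *Mtg8* controls and 116, 196 and 113 in labelled mutants. The groups overlapped, and the log2 difference of 0.040 (SE 0.30, 95% interval -0.62 to 0.70, adjusted p = 0.987 by limma) had opposite signs within dated names, -0.35, and within undated names, 0.46.

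*Gli3* (ENSMUSG00000021318.15, chr13:15463235-15730026, plus strand) encodes the GLI protein that is processed into the main repressor of hedgehog targets when ligand is low. *Lhx6* controls measured 414, 467, 435 and 506, a narrow range, and mutants measured 1088, 1337, 382, 647 and 721. Of the 5 mutants 4 lay above every control, and mutant 3 was below every control.

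The means were 456 ± 40.1 (n = 4) and 835 ± 377 (n = 5), with a log2 difference of 0.75 (SE 0.30, 95% interval 0.11 to 1.39, a 1.68-fold difference) and an adjusted p of 0.307 by limma. Without mutant 3 the difference was 0.997 with an adjusted p of 0.0438, and over the 19 alternative fits the adjusted p ranged from 0.0438 to 0.999983. Mutant 6 alone differed from the undated controls by 0.66. A gene on the other strand, *Gm6556*, overlaps exons of *Gli3*.

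*Gli3* measured 247, 291 and 195 in *Mtg8* controls and 350.0, 305 and 315 in labelled mutants. All 3 labelled mutants were above the controls, by a margin that was small beside the range of the controls. The groups differed by 0.42 on the log2 scale (SE 0.24, 95% interval -0.10 to 0.94, adjusted p = 0.866 by limma), with 0.38 within dated and 0.67 within undated names, and 0.27 without control 4.

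*Gli2* (chr1:118834132-119053619, minus strand) encodes the GLI protein that acts mainly as an activator once SMO is active. It measured 75.0, 57.6, 82.9 and 119 in *Lhx6* controls and 60.6, 84.2, 55.9, 94.0 and 63.1 in mutants. The groups overlapped, and the log2 difference was -0.20 (SE 0.29, 95% interval -0.83 to 0.43, adjusted p = 0.781 by limma), with -0.35 for mutant 6 alone. Over libraries left out it ranged from -0.36 (without control 2) to -0.018 (without control 4).

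In the *Mtg8* comparison the 3 controls were close together at 73.8, 72.5 and 71.4 and the labelled mutants were at 97.4, 76.3 and 109. The labelled mutants lay above the controls, with labelled mutant 3 the nearest to them. The log2 difference was 0.36 (SE 0.29, 95% interval -0.28 to 0.996, adjusted p = 0.886 by limma), 0.41 within dated and 0.35 within undated names.

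**Figure D4:**
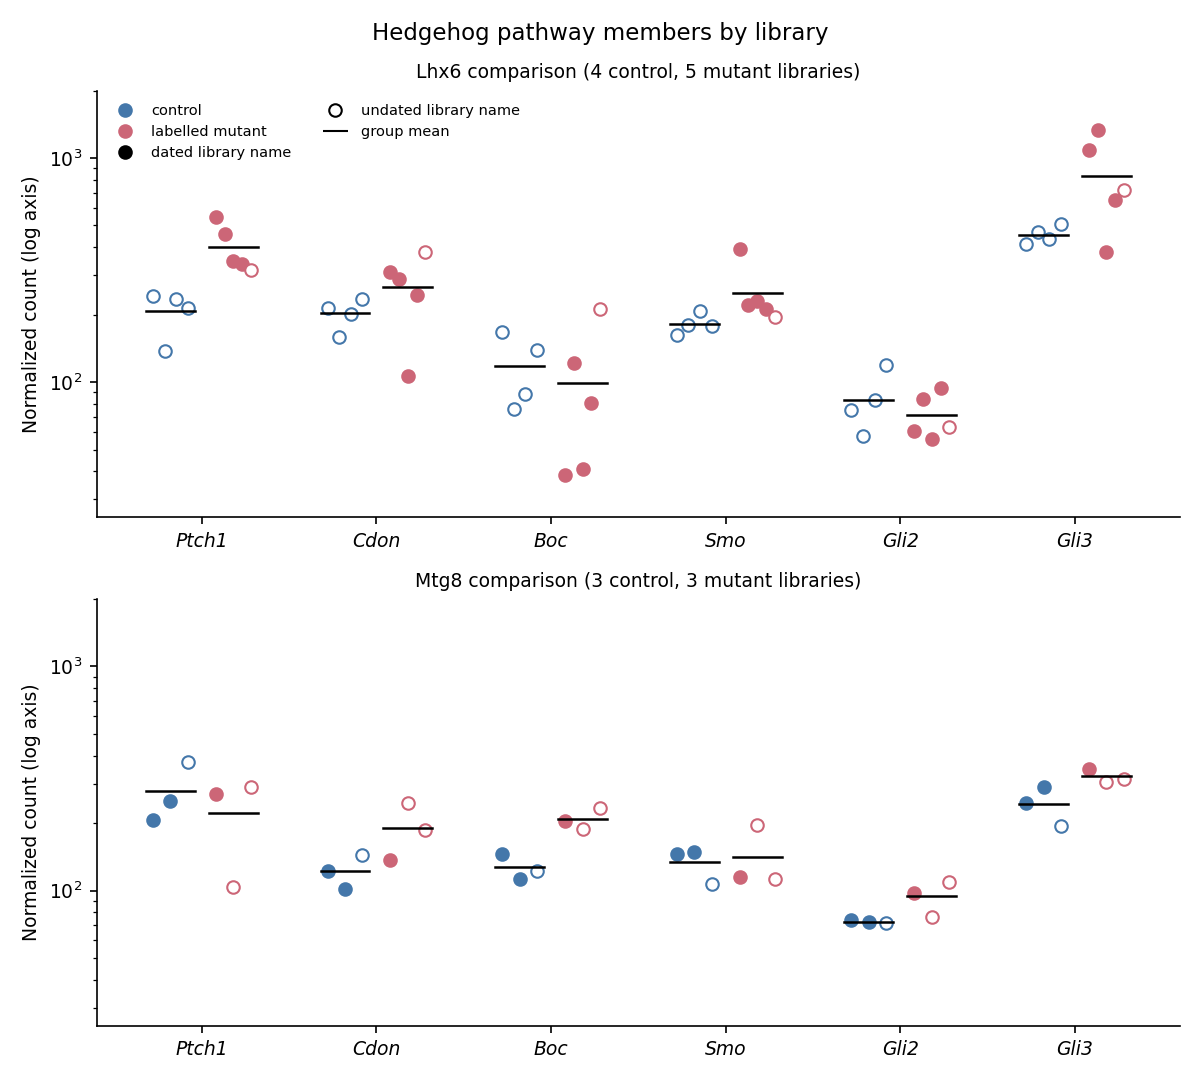
Normalized counts (log axis) of the 6 members tested in every library of both comparisons, with filled points for dated and open points for undated library names and lines at the group means. In the *Lhx6* comparison the mutants of *Ptch1* (316 to 548) lie above its controls (138 to 242), and in the *Mtg8* comparison the labelled mutants of *Boc* (187 to 234) lie above its controls (113 to 146).

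Within libraries the balance of members varied too, and 3 ratios of levels per kilobase were looked at after the values were known and were not tested. *Gli3* over *Gli2* was 3.05 to 5.81 in *Lhx6* controls, and 12.9, 11.4, 4.90, 4.93 and 8.17 in mutants 1, 2, 3, 5 and 6. It is a ratio of transcripts, and the repressor and activator forms of the proteins were not measured. The ranges overlapped, with 3 mutants above the controls and 2 within their range. The same ratio was 1.95 to 2.88 in *Mtg8* controls and 2.06 to 2.87 in labelled mutants.

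*Ptch1* over *Smo*, receptor over transducer, was 0.306 to 0.591 in *Lhx6* controls and 0.556 to 0.817 in mutants. *Cdon* over *Boc* was 0.743 to 1.31 in *Lhx6* controls and 1.03 to 4.65 in mutants, the highest value being that of mutant 1. Both of these ratios overlapped between the groups of the *Mtg8* comparison.

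Transcripts of other cell types moved with some of these values. The summed normalized count of 10 markers of neural progenitors or radial glia, all of them listed and none at 0 in any library, was 10785 to 12940 in *Lhx6* controls and 15339, 14899, 9655, 12371 and 19644 in mutants 1, 2, 3, 5 and 6. Mutant 3, the lowest of the mutants for *Gli3* and *Cdon*, was also the lowest in this sum and in that of the pyramidal lineage (10618). It was the highest of the mutants in the sums of interneurons (53108.5), oligodendrocyte precursors (325), microglia (191), fibroblasts (671) and red blood cells (20186). In the remaining lists mutant 3 lay within the range of the other mutants. Mutant 6, the highest in the progenitor sum and in *Cdon* and *Boc*, was the lowest of the mutants for *Ptch1* and *Smo*. Of the 10 markers 9 had a higher mean in mutants, *Hes5* a lower one, and *Sox2* separated the groups as *Ptch1* did, at 841 to 1147 in controls and 1345 to 3900.4 in mutants (log2 difference 0.95, adjusted p = 0.115 by limma). Limma called 0 of the 10, against 1.71% of all genes tested. Of 6 markers of MGE progenitors or the subpallial mantle 5 were listed, with sums of 1218 to 1722 in controls and 1409 to 3352 in mutants. All 5 had a higher mean in mutants, with a median log2 difference of 0.82 against -0.037 over all genes tested. Of these 5, 0 were called by limma, against the same 1.71% of all genes. *Lhx8* did not overlap, at 4.61 to 25.7 in controls and 26.08 to 138.8 in mutants (log2 difference 2.05, adjusted p = 0.0982 by limma), and *Zic1* differed by 1.10 with overlap (adjusted p = 0.305 by limma).

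In the *Mtg8* comparison, where *Boc*, *Gli2* and *Gli3* separated the groups, the progenitor sum was 7700 to 9066 in controls and 9973 to 13989 in labelled mutants, and the sum of interneuron markers was 77692 to 82568 in controls and 49072 to 66267 in labelled mutants. Neither pair of ranges overlapped. Of the 13 interneuron markers 12 had a lower mean in labelled mutants, *Dlx2* a higher one, and 6 separated the groups (*Sst*, *Dlx1*, *Sox6*, *Satb1*, *Erbb4* and *Lhx6*), with *Dlx1* at 19365 ± 1074 and 12630.3 ± 4433 and *Sox6* at 6694 ± 489.7 and 4127 ± 779, and limma called 0. Of all genes tested 10.2% separated these groups in either direction, which is the share to set beside this count and those of the lists that follow. Limma called 0% of all genes in this comparison. Of the 10 progenitor markers 9 had a higher mean in labelled mutants, among them the most abundant, *Fabp7*, at 3013 ± 363 and 4683 ± 1701 (n = 3 each), and *Sox2* alone had a lower one, at 1009 ± 138 and 804 ± 167. *Vim*, at 803 to 1188 and 1365 to 2304, and *Nes*, at 234 to 270.5 and 322 to 452, did not overlap between the groups, and limma called 0 of the 10. Sums of the pyramidal lineage were 13058 to 18267 and 10618 to 14919 in *Lhx6* controls and mutants, and 4792 to 12035 and 7107 to 18803 in the *Mtg8* comparison. There the means of all 6 pyramidal markers were higher in labelled mutants, and *Neurod2*, at 338 to 614 and 945 to 1051, did not overlap (log2 difference 1.16, adjusted p = 0.582 by limma), while limma called 0 of the 6. Markers of microglia, endothelium, mural cells, fibroblasts and oligodendrocyte precursors were low, with sums of at most 712, and each of these lists had a defining marker at 0 in some library (*Csf1r*, *Cldn5*, *Abcc9*, *Lum* and *Sox10* among them). Of the oligodendrocyte precursor markers, *Pdgfra* differed by 2.45 in the *Lhx6* comparison (adjusted p = 0.305 by limma) and by 2.05 in the *Mtg8* comparison, and *Olig2*, which is also among the targets of the pathway, by -0.37 (adjusted p = 0.854 by limma) and 2.23. Both had an adjusted p of 0.859 by limma in the *Mtg8* comparison, and the groups overlapped in each case. The median of the 3 markers tested was 0.39 in the *Lhx6* comparison and 2.05 in the *Mtg8* comparison, against -0.037 and -0.013 over all genes tested. Red blood cell transcripts were abundant and uneven, with 4 of 4 globin genes listed, none at 0, and sums of 5867 to 58166 in *Lhx6* controls, 1695 to 20186 in *Lhx6* mutants, 10585 to 27162 in *Mtg8* controls and 15407 to 31319 in labelled mutants. Within the *Lhx6* table the sum was highest in control 3 and lowest in mutant 2, and the groups overlapped in both comparisons. The part of these cells in the values of the pathway was not tested, and in bulk RNA fewer cells of a type and less RNA per cell cannot be told apart.

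Around the 9 members, 50 other genes of the pathway were listed by role, 45 with a row and 44 tested in the *Lhx6* table, and 46 and 43 in the *Mtg8* table. Of these limma called 0 in either comparison, against 1.71% of all genes tested in the *Lhx6* comparison and 0% in the *Mtg8* comparison. An unadjusted p under 0.05 was found for 6 of 44 in the *Lhx6* comparison, where 12.7% of all genes had one, and for 5 of 43 in the *Mtg8* comparison, where 5.49% did. In the *Lhx6* comparison DESeq2 called 2, *Scube3* and *Gsk3b*, against 4.53% of all genes, and edgeR called 0, against 1.67%. The groups did not overlap for 2 of 44 in the *Lhx6* comparison (*Scube3* and *Gsk3b*, both higher), against 6.22% of all genes in either direction. They did not overlap for 6 of 43 in the *Mtg8* comparison, against 10.2%, with *Gas1*, *Ccnd1* and *Ccnd2* higher and *Gpr161*, *Prkacb* and *Kif3a* (a subunit of a ciliary kinesin, named after its values were seen) lower in labelled mutants. The median log2 difference over the lists was 0.060 in the *Lhx6* comparison and -0.079 in the *Mtg8* comparison, against -0.037 and -0.013 over all genes tested.

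Among genes of the ligand and its release, *Scube3*, which encodes a secreted relative of the protein that carries SHH away from its source cell, was 31.9 to 108.7 in *Lhx6* controls and 139.5 to 243.8 in mutants. The groups did not overlap, with a log2 difference of 1.39 (SE 0.34) and an adjusted p of 0.0621 by limma. *Scube1*, of the same family, differed by -0.68 (adjusted p = 0.349 by limma). The smallest p of this list in the *Mtg8* comparison belonged to *Disp2* (-0.61) and *Disp1* (-0.39), whose family includes the exporter of the ligand, and the groups overlapped for both.

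Among receptors and their modulators, *Gpr161*, a ciliary receptor that keeps the pathway low, differed by 0.90 (SE 0.30, adjusted p = 0.198 by limma) in the *Lhx6* comparison, with means of 326 ± 136 and 605 ± 186. It lay the other way in the *Mtg8* comparison, at 464 to 631 in controls and 233 to 435 in labelled mutants, without overlap and with a difference of -0.86 (SE 0.27, adjusted p = 0.859 by limma). *Gas1*, the co-receptor that works beside CDON and BOC, differed by 0.61 in the *Lhx6* comparison with overlap. It was 81.6 to 115 in *Mtg8* controls and 144 to 222 in labelled mutants, a difference of 0.72 (SE 0.29, adjusted p = 0.859 by limma).

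Among 20 transducers, *Gsk3b*, a kinase that phosphorylates GLI proteins, was 7210 to 9210 in *Lhx6* controls and 9444 to 15589 in mutants, a difference of 0.57 (SE 0.14, adjusted p = 0.0761 by limma) without overlap. *Ulk3*, a kinase that acts on GLI proteins, differed by -0.80 (adjusted p = 0.253 by limma). In the *Mtg8* comparison *Prkacb*, a catalytic subunit of protein kinase A, differed by -0.39 without overlap, and *Kif7*, a ciliary kinesin that regulates GLI proteins, by 1.07 with overlap (adjusted p = 0.859 by limma for both).

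Among 10 genes of the cilium, where the pathway is transduced, 0 had an unadjusted p under 0.05 in either comparison by limma. Over all genes tested the shares were 12.7% in the *Lhx6* and 5.49% in the *Mtg8* comparison. The smallest p belonged in both to *Ift80* (-0.52 and -0.42 in the *Lhx6* and *Mtg8* comparison) and *Rpgrip1l* (0.30 and -0.41). Neither of them separated the groups.

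Among 8 known targets of the pathway, 6 had a row and 5 were tested in each table. *Nkx2-1*, the MGE fate gene that SHH maintains, differed by 0.21 (SE 0.19, adjusted p = 0.656 by limma) in the *Lhx6* comparison, and *Ccnd2*, a D-type cyclin of proliferating progenitors, by 0.20. *Ccnd2* was 2912 to 4101 in *Mtg8* controls and 4148 to 6058 in labelled mutants, a difference of 0.58 (SE 0.20). *Ccnd1*, its paralog, was 205 to 286 and 307 to 546, a difference of 0.72 (SE 0.27). Both separated the groups, and neither passed (adjusted p = 0.859 by limma for both). Since the sum of progenitor markers moved the same way, its part in these values was not tested either.

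**Figure D5:**
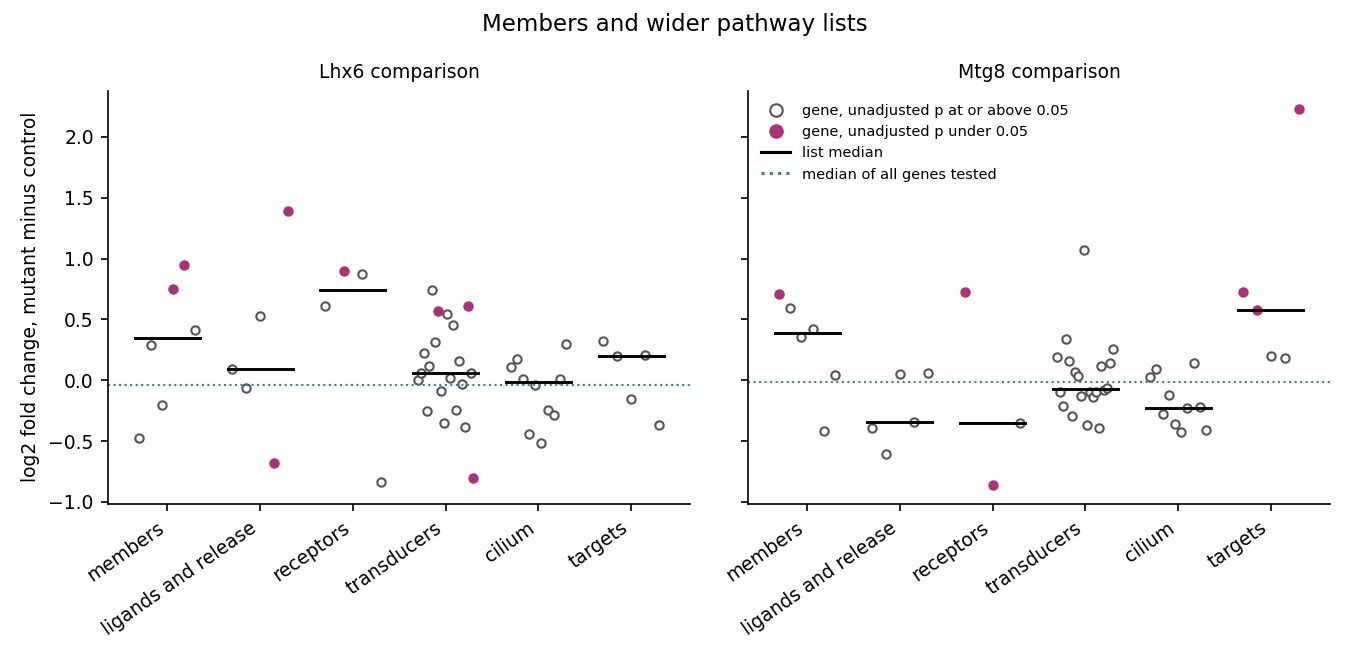
Log2 fold changes (mutant minus control) of the 6 members tested and of the tested genes of 5 wider pathway lists, 1 point a gene, with filled points for an unadjusted p under 0.05, solid lines for list medians and a dotted line for the median of all genes tested. The members' medians (0.35 and 0.39) lie above the dotted line in both comparisons, and no gene of the cilium list has a filled point in either. Over all genes tested, 12.7% (*Lhx6*) and 5.49% (*Mtg8*) had an unadjusted p under 0.05 by limma.

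*Ptch1*, the member with the smallest p in the *Lhx6* comparison, was also compared with every gene of mean 50 or more over the 9 libraries of that table. Of 12566 genes, the log2 values of *2900022M07Rik* (r = 0.967), *Mvb12b* (0.963), *Xylt1* (0.959), *Gm42372* (0.956) and *5330409N07Rik* (0.955) followed it most closely by Pearson's r. The libraries share genotype and name style, so these correlations hold the group difference and are given as a description. Of the other members *Smo* had r = 0.759 with *Ptch1*, *Gli3* 0.716, *Cdon* 0.406, *Gli2* -0.0949 and *Boc* -0.310.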

How the data were processed

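YFP-positive cells of 15 single embryos were sequenced as single reads of 75 bases. Per the submitters' notes and the study's methods, the authors trimmed with fastp 0.20.1, aligned with STAR 2.7b, counted with featureCounts 1.6.4 (GENCODE annotation of GRCm38) and removed sex-linked genes. The authors deposited exon lengths and a signal, the read count of a gene scaled by the DESeq2 size factor of the library, in 2 tables that were scaled separately. The authors' own fold changes and p-values in these tables were not used. Reads were recovered as whole multiples (100% of values within a tolerance of 0.01), with 12218422 to 22053032 per library, and the number of embryos limits precision. Groups came from the sample titles, and genotypes from the methods.

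Each table was fitted alone with limma 3.58.1 (R 4.3.3, mean-variance trend) on log2(normalized count + 1), which understates changes of low genes, restricted to mean values of 10 or more. Two-sided p-values were adjusted over all genes by Benjamini-Hochberg, with a threshold of 0.05. The study tested counts with DESeq2, which was an alternative here (DESeq2 1.42.0 and edgeR 4.0.16 on recovered reads). The others were a pseudocount of 0.5 or 10, testing every gene or those with a mean of 50 or more, TMM, quantile normalization, a replicate block, name style as a covariate and each library left out. Fits were tested on simulated data. Members and lists were chosen with earlier results of these data known. Named genes were the members, and of each wider list any gene called, or otherwise the 2 with the smallest p in each table. Markers of cell types named with values (such as *Sst*, *Sox2* and *Vim*), and *Kif3a*, were picked after their values were seen; differences within library codes and the 3 ratios were added after seeing the data.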

Additional observations from a re-analysis of the deposited data

Results flagged for a closer look

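Of the values of the 6 tested members in the groups of 4 and 5 libraries, 1 stood apart. *Smo* in *Lhx6* mutant 1 had a normalized count of 391, while the other 4 mutants lay between 194 and 229. Its gap to the nearest library was 0.765 of the range of the group on the log2 scale, above Dixon's critical value of 0.71 for 5 samples. Chance flags about 1 in 20 groups, and 12 groups were examined.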

How the results depend on the processing

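The direction of *Ptch1*, *Smo*, *Gli2*, *Gli3* and *Cdon* in the *Lhx6* comparison and of *Gli2*, *Gli3*, *Cdon* and *Boc* in the *Mtg8* comparison was the same in every alternative run. *Boc* in the *Lhx6* comparison reversed to 0.92 with name style as a covariate and within undated names, and to 0.91 within the library code that mutant 6 shares with controls 1 and 2. All of these values rest on mutant 6 as the only mutant, so they are not separate checks. *Ptch1* in the *Mtg8* comparison ranged from -0.68 to 0.058 over libraries left out, reversing without labelled mutant 3, and reversed to 0.25 within dated names (libraries that also share 1 library code). *Smo* in the *Mtg8* comparison reversed to -0.00401 with quantile normalization, -0.15 with a replicate block, -0.35 within dated names, and to -0.11 without control 4 and -0.22 without labelled mutant 3, in a range of -0.22 to 0.18 over libraries left out. The cause was not tested.

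Of the members, 1 was called in the *Lhx6* comparison by DESeq2 (*Ptch1*), 1 without mutant 6 (*Ptch1*) and 1 without mutant 3 (*Gli3*), a range of 0 to 1 over libraries left out. Of the wider lists, DESeq2 called 2 (*Scube3*, *Gsk3b*) and leaving out a library 0 to 2, with *Scube3* without control 3 and *Gsk3b* and *Gpr161* without mutant 6. Over all genes the calls were 330 without mutant 3, 492 without mutant 6 and 198 without control 3. In the *Mtg8* comparison 0 members and 0 list genes were called in any of 16 alternative fits, with 1 member at an unadjusted p under 0.05 by limma. Over all genes the *Lhx6* comparison gave 286 calls, 811 by DESeq2 and 57 with name style as a covariate. Leaving out a library gave 159 (without control 1) to 492, with 174 without control 2 and 173 without control 4. The *Mtg8* comparison gave 0 calls, 31 by DESeq2, 1 by edgeR, 1 with no filter and 2 at a minimum mean of 50. Leaving out a library gave 0 to 87 there, the highest without labelled mutant 2. Without division by exon length, 4 of the 8 members of the *Lhx6* table changed rank, with *Gli3* first either way, and 2 of the 9 of the *Mtg8* table did, *Boc* going from rank 1 to 4 and *Ptch1* from 4 to 1.

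Replicate numbers are shared between groups, and no label says that they pair embryos. Deviations of same-numbered libraries correlated at -0.154 to 0.0717 over 3 pairs in the *Lhx6* comparison and at 0.138 and 0.159 over 2 pairs in the *Mtg8* comparison, where the 7 pairs of unlike numbers reached at most 0.0778, so 2 pairs leave it undecided there. With a replicate block the calls were 86 and 100, with 0 members among them.

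*Shh*, *Hhip* and *Gli1* had at most 10 reads in any library, so depth limits any statement on them. In the *Lhx6* comparison genotype and name style can hardly be told apart, and a comparison free of the style rests on 1 mutant library.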
